A study of Mus musculus with 69 samples.

Results

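Ribosome biogenesis genes encode the nucleolar proteins that transcribe, modify, cut and fold ribosomal RNA and assemble it with ribosomal proteins. RNA polymerase I makes the long precursor, snoRNPs methylate or pseudouridylate it, the small-subunit processome cuts out the small-subunit RNA, and a separate set of factors builds the large subunit. Resting T cells keep this pathway low and raise it when they grow, and Myc is a known activator of many of its genes. A set of 49 such genes was taken by name, with earlier results of these data known, and followed through all the RNA-seq libraries. Of these, 48 had a row in all 3 count tables, out of 24309 symbols that the tables share, and Noc2l was not analysed here. By role they comprise 3 C/D box snoRNP proteins, 4 H/ACA snoRNP proteins, 3 subunits of RNA polymerase I, 6 multifunctional nucleolar proteins, 19 factors of the small-subunit processome and 40S maturation and 13 factors of 60S assembly. All 48 passed the filter on low counts in every fit.

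The study asked how far the STAT5 paralogs, transcription factors activated by IL-7 and IL-15, replace each other in T cells. Mice were 8 to 16 weeks old and carried germline alleles, so that every cell type lacked them: WT mice (Stat5a+/+ Stat5b+/+), AAB mice (Stat5a-/- Stat5b+/-) and BBA mice (Stat5a+/- Stat5b-/-). Naive (Tnv, CD44 low CD62L high), central memory (Tcm, CD44 high CD62L high) and effector memory (Tem, CD44 high CD62L low) CD8+ cells and naive CD4+ cells were sorted from pooled lymph nodes and spleen. They were lysed without cytokine or after 12 to 16 hours with 10 ng/ml IL-7 or IL-15, with 2 libraries per group (3 in some CD4+ groups). The study's methods give a longer upper limit for the culture time. Of 69 samples, 67 had an unambiguous group. The methods describe the cells without cytokine as taken directly ex vivo, while the labels carry a single culture protocol for all samples, so a comparison of cytokine with no cytokine also compares cultured with possibly uncultured cells. A further 4 libraries are labelled as AAB CD8+ cells transduced, after activation in vitro, with a retrovirus carrying a constitutively active STAT5A (CA-STAT5A) or with a control vector, and their marker genes go against the CD8+ label.

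CPM here means counts brought to one TMM-normalized total for every library, and the level of the whole set is the mean of log2(CPM + 1) over the 48 genes. Fold changes come from edgeR fits with their own normalization, so they can differ slightly from the ratio of the CPM values. Negative log2 fold changes mean lower in the genotype named first. A gene counts as called where the difference passed 1.5-fold at an adjusted p under 0.05 (edgeR's quasi-likelihood test, Benjamini-Hochberg over all genes tested). Counts at an unadjusted p under 0.05, here the unadjusted limit, are looser than calls. They cannot be set against the share of genes called, so the number of all genes passing that limit is also given. RNA of bulk samples cannot tell fewer cells of a type from less RNA per cell.

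Promoters are shown because the genes moved together between STAT5 genotypes. RefSeq promoters of GRCm38.p6 were found for 43 of the 48 genes and searched from 250 bases before to 50 bases after the start for the E-box CACGTG, which Myc can bind, and for the STAT site TTCNNNGAA. Both motifs read the same on both strands, and neither contains the other. In the lines that follow each window of 30 bases runs 5′ to 3′ on the gene's strand, with the motif in capitals. Positions count from the RefSeq start, which can differ from the end of the GENCODE gene model given further on, and in Grwd1 lies inside that model.
Grwd1, chr7:45830740-45830769, minus strand: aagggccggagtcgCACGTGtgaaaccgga
Nop2, chr6:125131811-125131840, plus strand: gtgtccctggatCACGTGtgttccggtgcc
Mybbp1a, chr11:72441347-72441376, plus strand: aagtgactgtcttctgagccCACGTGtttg
Pes1, chr11:3963965-3963994, plus strand: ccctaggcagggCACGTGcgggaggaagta
Imp4, chr1:34439696-34439725, plus strand: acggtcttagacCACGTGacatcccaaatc
Nop58, chr1:59684950-59684979, plus strand: gtgacgttacTTCCCAGAAttcttagagaa
Polr1b, chr2:129100971-129101000, plus strand: ggaactacatTTCCCAGAAggccacggggt
The E-box was present in 10 of the 43 promoters (23.3%) against 8.09% of 27025 genes with a promoter in the table. Restricted to the 250 bases before the start it was present in 3 (6.98%) against 6.86%, and the other matches reached past the start, beginning at base 35 in Grwd1 and at base 41 in Mybbp1a. The STAT site was present in 6 promoters (14.0%) against 9.55%. A match is a string of letters and not evidence of binding. The median log2 fold change of BBA over WT in Tcm with IL-15 was -1.28 with an E-box and -1.15 without, and -1.06 with a STAT site and -1.17 without.

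The library checks were as follows. Total counts on genes were 5926139 to 25612758 in CD8+, 6705004 to 34118295 in CD4+ and 11020965 to 16516525 in transduced libraries. In Tcm with IL-15, Stat5a was at 82.0 and 90.5 CPM in WT, 2.62 and 2.60 CPM in AAB, and 41.8 and 44.1 CPM in BBA. Stat5b there was at 175 and 210.1 CPM in WT, 96.1 and 93.2 CPM in AAB, and 65.2 and 74.4 CPM in BBA, so reads on Stat5b remained in BBA, and whether they come from outside the deleted part was not tested. In Tnv with IL-7 the BBA libraries (46.9 and 44.1 CPM of Stat5a) lay between the WT libraries (70.7 and 32.3 CPM). Cd4 was at 236 CPM in the second WT library of Tnv with IL-15 (replicate 2), against at most 11.8 CPM in any other CD8+ library, and the counts of called genes that rest on it are also given without it. By their Xist and Ddx3y counts the 6 libraries of Tnv with IL-7 and 4 of 6 of Tcm with IL-7 came from males, all other CD8+ libraries outside the transduced set from females, and all CD4+ libraries from males. Among the 48 genes, exons of 12 overlap another protein-coding gene, Gnl3 (Pbrm1), Mybbp1a (Spns2) and Heatr1 (Lgals8) among them, and reads in the overlap cannot be assigned with certainty.

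In Tcm cultured with IL-15 the whole set was lowest in BBA, higher in AAB and highest in WT. The mean log2(CPM + 1) was 6.89 ± 0.0884 (SD, n = 2) in WT, 6.26 ± 0.0136 in AAB and 5.71 ± 0.00767 in BBA, and no library of one genotype reached the range of another. All 48 genes had a lower estimate in BBA than in WT, with a median log2 fold change of -1.18, and 43 of them were called lower, where 11.8% of all genes tested were. In AAB all 48 estimates were again below WT, with a median of -0.59, and 24 were called lower against 2.57% of all genes. Between the 2 deficient genotypes 22 were lower in BBA than in AAB, against 3.15% of all genes, with a median of -0.53. The median over all genes tested was 0.02, 0.01 and 0.00 in these comparisons. The comparisons of AAB and of BBA with WT share the WT libraries. More than 2-fold below WT were 28 of the called genes in BBA and 0 in AAB. The set was chosen with earlier results known, so its values need not hold for the whole pathway. Of 103 other ribosome biogenesis genes, 46 were called lower in BBA than in WT and 12 in AAB, smaller shares than in the set.

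**Figure D1:**
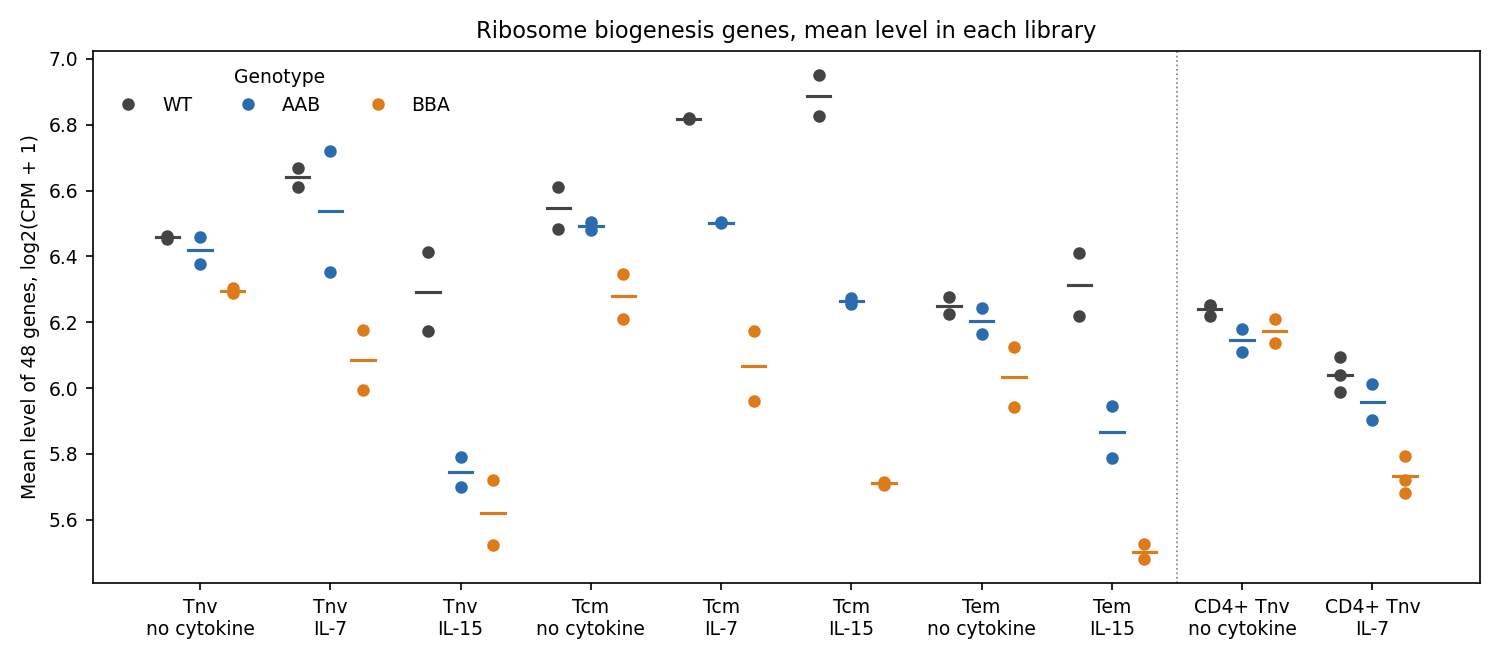
Mean of log2(CPM + 1) over 48 ribosome biogenesis genes (vertical axis) in each library, by cell state and culture (horizontal axis) and genotype (grey WT, blue AAB, orange BBA). Points are libraries, lines are group means, and the dotted line separates CD8+ from CD4+ cells, which were counted in another table. The 3 genotypes lie closer together without cytokine, though BBA is below WT there too. They spread in culture with IL-15, most in Tcm, where the WT mean is 6.89 and the BBA mean 5.71.

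The largest change was that of Grwd1, a chaperone of a 60S ribosomal protein (chr7:45825223-45830944, minus strand of GRCm38), whose promoter window is shown above. It stood at 65.6 and 63.8 CPM in the WT libraries of Tcm with IL-15, 31.2 and 34.2 CPM in AAB, and 14.9 and 14.3 CPM in BBA. The 3 genotypes did not overlap, and BBA fell by 2.09 on the log2 scale (SE 0.106, adjusted p = 9.52e-05, edgeR). Rrp12 (chr19:41862851-41896173, minus strand), which takes part in the maturation and export of pre-ribosomal subunits, followed with 126 and 122 CPM in WT, 63.3 and 76.3 CPM in AAB, and 30.6 and 32.2 CPM in BBA. It fell by 1.92 in BBA (SE 0.110, adjusted p = 1.12e-04, edgeR) and by 0.78 in AAB (SE 0.103, adjusted p = 9.62e-03, edgeR). Gnl3, the nucleolar GTP-binding protein nucleostemin, was at 128.3 and 99.1 CPM in WT, 59.7 and 61.9 CPM in AAB, and 33.1 and 27.2 CPM in BBA. Grwd1, Rrp12 and Gnl3 were also the genes that separated the deficient genotypes most, with BBA below AAB by 1.152, 1.137 and 1.003 on the log2 scale.

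The C/D box snoRNP proteins, which take part in methylation of ribosomal RNA, moved as a block. Fibrillarin (Fbl), the methyltransferase itself, was at 300.3 and 290.2 CPM in WT, 159 and 174 CPM in AAB, and 91.9 and 101 CPM in BBA. Nop56, one of its scaffold proteins, was at 283 and 248 CPM in WT, 161.5 and 161.7 CPM in AAB, and 95.4 and 93.4 CPM in BBA. All 3 genes of this group were called in each of the 3 comparisons, with log2 fold changes of BBA over WT from -1.55 to -1.43. The H/ACA proteins, which form pseudouridine, were called lower in BBA in 4 of 4 and in AAB in 3 of 4 cases. Dyskerin (Dkc1), the pseudouridine synthase, went from 239.8 and 202 CPM in WT to 98.3 and 92.7 CPM in BBA. Nop10, a small partner of dyskerin, was called in BBA (log2 fold change -1.07, SE 0.211) and was the group's exception in AAB, where the libraries with 76.8 and 58.7 CPM overlapped those of WT with 106 and 73.7 CPM.

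RNA polymerase I subunits differed among themselves. Polr1b, the second-largest subunit, was at 84.2 and 76.9 CPM in WT, 37.6 and 40.5 CPM in AAB, and 35.5 and 32.6 CPM in BBA. It had the largest log2 fold change of the set in AAB (-0.999, SE 0.101, adjusted p = 4.71e-03, edgeR), and the difference between AAB and BBA, -0.19, was not called. Polr1a, the largest subunit, was called in BBA (-1.17) and not in AAB (-0.47), and the difference between BBA and AAB was called (-0.70, SE 0.0937). Polr1c, which RNA polymerase I shares with RNA polymerase III, was below 1.5-fold in both, with log2 fold changes of -0.53 in BBA and -0.37 in AAB.

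Nucleolin (Ncl) and nucleophosmin (Npm1), abundant nucleolar proteins, had the highest levels of the set per length, Npm1 at 355 ± 60.6 and Ncl at 99.4 ± 14.7 CPM per kb of exon in WT Tcm with IL-15. They were among the smaller changes of the 6 multifunctional nucleolar proteins, with log2 fold changes of -0.93 (Ncl) and -0.97 (Npm1) in BBA. Mybbp1a, a nucleolar protein that binds Myb and other transcription factors, was at 493 and 489.6 CPM in WT, 243 and 277 CPM in AAB, and 140.4 and 152 CPM in BBA. Nolc1, which assists snoRNP assembly, fell by 1.59 in BBA (SE 0.0902) and by 0.83 in AAB (SE 0.0872). The RNA helicase Ddx21 was at 497 and 466 CPM in WT and at 192 and 186 CPM in BBA. In BBA 6 of the 6 were called and in AAB 3 of 6.

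Of the 19 small-subunit and 40S factors, 16 were called in BBA and 7 in AAB. Heatr1 and Utp20, large scaffold proteins of the processome, and Tsr1, a factor of late 40S maturation, had log2 fold changes of -1.35, -1.41 and -1.32 in BBA. Nob1, the endonuclease of the last cut of small-subunit RNA, was at 76.6 and 78.5 CPM in WT, 52.2 and 56.0 CPM in AAB, and 38.0 and 39.9 CPM in BBA. Imp3 and Imp4, partners in one processome complex, and Bms1, a GTPase of the processome, were the 3 that were not called in BBA, with log2 fold changes of -0.40, -0.43 and -0.36. Their adjusted p-values (edgeR) were between 0.0146 and 0.0175, so it was the 1.5-fold limit that they missed.

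Of the 13 factors of 60S assembly, 12 were called in BBA and 7 in AAB. Nop2, a methyltransferase of large-subunit RNA (chr6:125131909-125144753, plus strand), was at 131 and 137 CPM in WT, 71.3 and 72.2 CPM in AAB, and 38.4 and 36.6 CPM in BBA. Rrp1b fell by 1.63 in BBA (SE 0.0871) and by 0.84 in AAB (SE 0.0835). Bop1, Pes1 and Wdr12 form one complex and had log2 fold changes of -0.99, -0.83 and -0.75 in BBA, all called, while in AAB Bop1 was called (-0.61) and Pes1 (-0.46) and Wdr12 (-0.44) were not. Nip7 had the smallest difference between BBA and WT and was not called, at 79.1 and 73.7 CPM in WT, 66.2 and 66.6 CPM in AAB, and 68.1 and 64.3 CPM in BBA (BBA over WT -0.15, SE 0.0865, adjusted p = 0.208, edgeR). The smallest changes that were still called were those of Ddx10, Brix1 and Utp15, with log2 fold changes of -0.69 to -0.74.

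**Figure D2:**
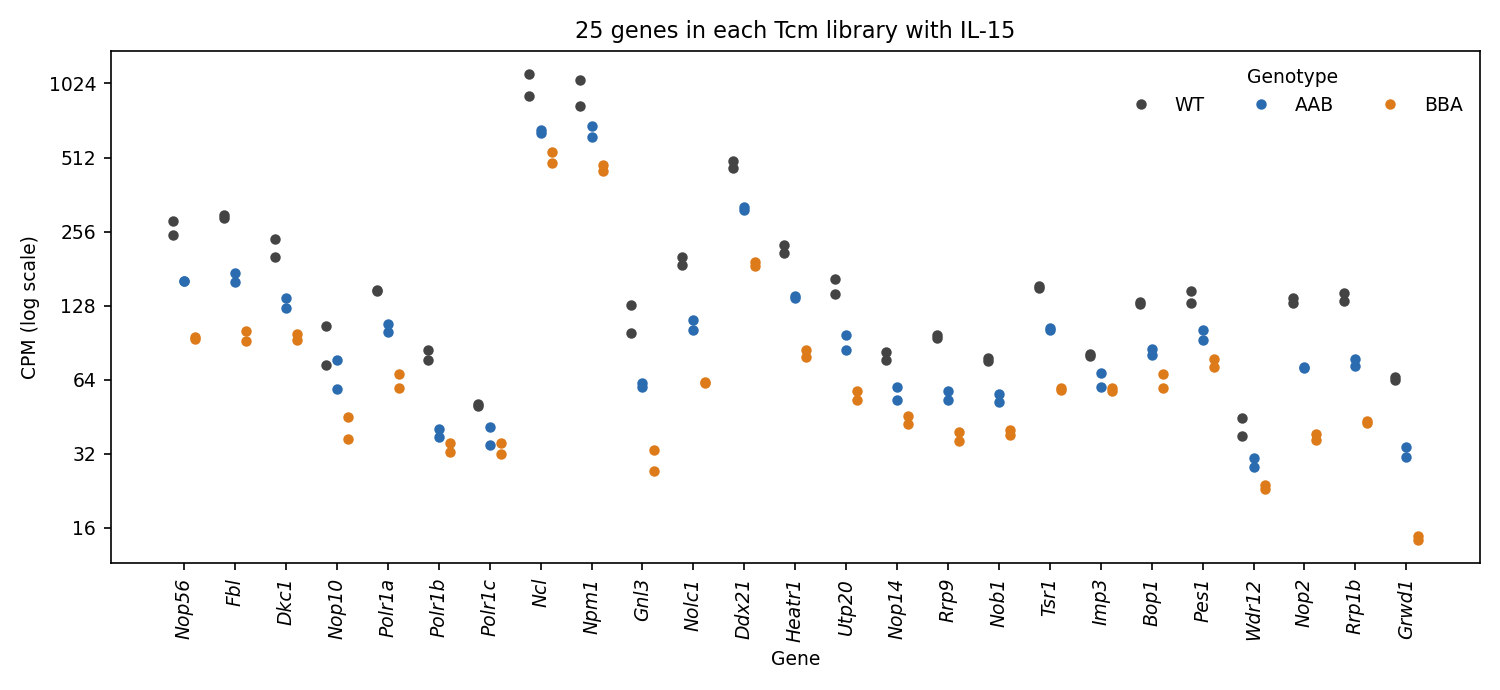
CPM on a log scale (vertical axis) of 25 ribosome biogenesis genes chosen to stand for the roles (horizontal axis) in each Tcm library with IL-15, grey for WT, blue for AAB and orange for BBA. Each point is 1 library, and in nearly all genes the pairs of points step down from WT over AAB to BBA, for example in Grwd1 from 65.6 and 63.8 to 14.9 and 14.3 CPM.

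**Figure D3:**
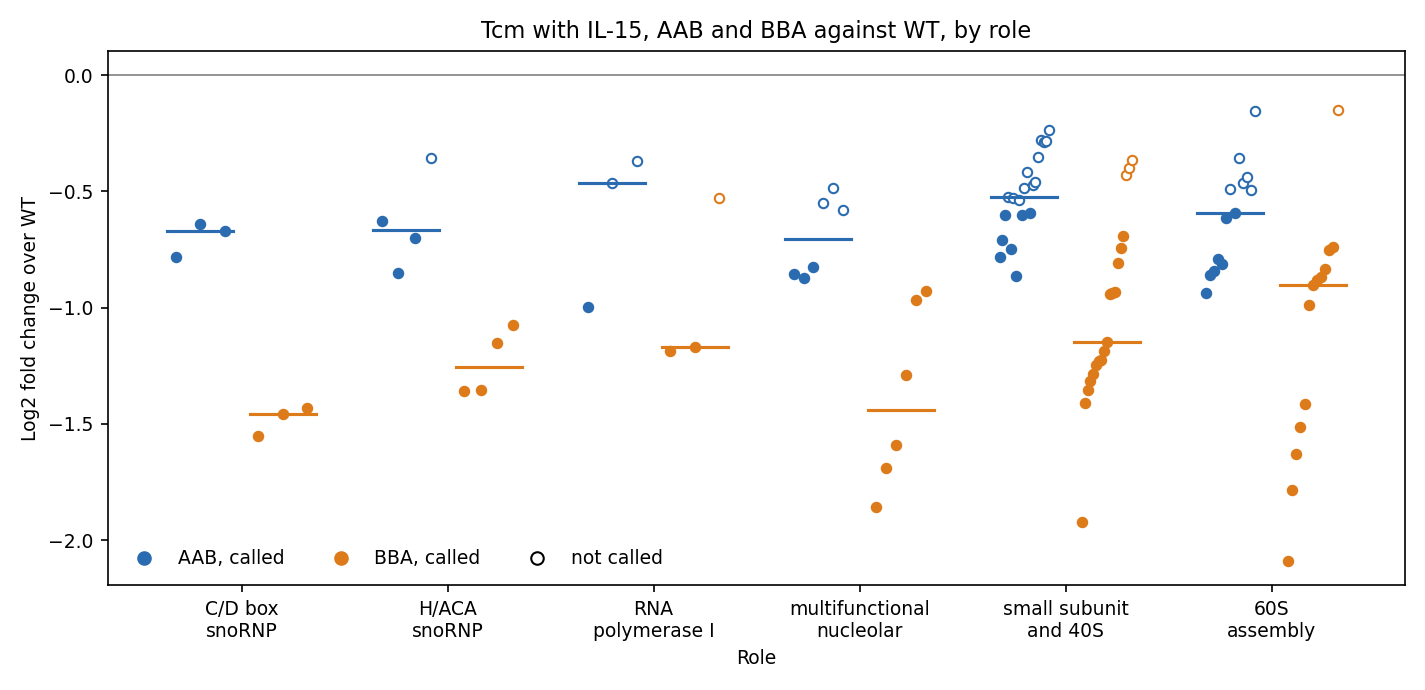
Log2 fold change over WT (vertical axis) of each of the 48 genes in Tcm with IL-15, by role (horizontal axis), blue for AAB and orange for BBA. Filled points were called, open points were not, and lines are medians. Every point lies below 0, and the BBA medians run from -0.90 (60S assembly) to -1.46 (C/D box snoRNP).

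Of the other lists given here, only the memory or effector markers separated all the genotypes. Markers of memory or effector cells (Cd44, Il2rb, Cxcr3 and Ccl5, summed) were at 1587 to 1700.2 CPM in WT, 1465 to 1510.5 CPM in AAB, and 773 to 977 CPM in BBA. Proliferation markers were at 53.3 to 85.9 CPM in BBA, 73.9 to 137 CPM in AAB and 112 to 121 CPM in WT. B cell markers were at 182 to 383 CPM in BBA, 66.5 to 182 CPM in AAB and 89.4 to 164 CPM in WT. The part of these in the result was not tested. Myc itself fell with the set in Tcm with IL-15, from 387 and 442 CPM in WT to 140.2 and 170.1 CPM in AAB and to 69.0 and 86.0 CPM in BBA. Leaving out 1 library at a time gave 42 to 44 called genes in BBA. In AAB the count fell to 9 without WT replicate 1, to 6 without AAB replicate 1 and to 13 without AAB replicate 2. For BBA against AAB it fell to 9 without AAB replicate 2 and to 13 without BBA replicate 2.

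In Tnv with IL-15 both deficient genotypes were below WT and close to each other. The mean log2(CPM + 1) was 6.29 ± 0.171 (SD, n = 2) in WT, with 6.41 in replicate 1 and 6.17 in replicate 2, the library with Cd4 counts. It was 5.74 ± 0.0658 in AAB and 5.62 ± 0.139 in BBA, whose libraries overlapped. In BBA 21 genes were called lower, where 2.51% of all genes tested were, with a median log2 fold change of -0.73. Mybbp1a was at 326 and 271 CPM in WT, 135 and 150.1 CPM in AAB, and 101 and 116 CPM in BBA (BBA over WT -1.43, SE 0.150, adjusted p = 3.76e-03, edgeR). Grwd1 and Rrp12 fell by 1.39 and 1.28, and Gar1, Bop1 and Rrp9 were the smallest of the called changes (-0.69 to -0.78). Npm1, called in Tcm, had overlapping libraries here at 832 and 544.5 CPM in WT and 754 and 436 CPM in BBA.

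In AAB Tnv with IL-15, 7 genes were called lower against 0.313% of all genes, with a median of -0.56. They were Polr1a, Mybbp1a, Nolc1, Rrp12, Nop2, Rrp1b and Grwd1, with log2 fold changes from -0.74 (Polr1a) to -1.22 (Grwd1). Without WT replicate 2, the library with Cd4 counts, 19 genes were lower in BBA and 4 in AAB, and without WT replicate 1 the BBA count was 14. The AAB count was 0 without either AAB library, 1 without WT replicate 1, and 19 by DESeq2. Between BBA and AAB 0 genes were called by edgeR (3 with an unadjusted p under 0.05, 0 by DESeq2), where 0.0706% of all genes were, with a median of -0.13. The unadjusted limit took in 659 of all 9913 genes.

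Nip7, which acts in pre-ribosomal RNA processing, went the other way in Tnv with IL-15. It was at 64.2 and 60.5 CPM in WT, 93.6 and 79.3 CPM in AAB, and 133 and 98.8 CPM in BBA, with no overlap. It was called higher in BBA (log2 fold change 0.93, SE 0.177, adjusted p = 0.0186, edgeR), 1 gene of 48 in that direction where 6.8% of all genes were, and not in AAB (0.48, SE 0.176). It was no longer called without WT replicate 1, WT replicate 2 or BBA replicate 1. In Tem with IL-15 its levels scattered from 65.7 to 219 CPM, the highest being BBA replicate 2.

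In Tem with IL-15 the mean log2(CPM + 1) was 6.31 ± 0.135 (SD, n = 2) in WT, 5.87 ± 0.113 in AAB and 5.50 ± 0.0318 in BBA, with no overlap between the genotypes. In BBA 14 genes were called lower, where 1.18% of all genes were, and the median log2 fold change was -0.87. Gnl3 was at 74.6 and 58.7 CPM in WT and 25.6 and 22.6 CPM in BBA (-1.43, SE 0.210, adjusted p = 0.0420, edgeR). Mybbp1a (-1.36) and Nop2 (-1.35) followed, and Utp20, Polr1a and Nolc1 were the smallest of the called changes (-0.83 to -0.95). Leaving out 1 library, whichever it was, left 0 or 1 calls, and DESeq2 gave 34. BBA replicate 2 stood apart in Dkc1 (163 CPM, against 74.7 CPM in the other BBA library) and Polr1b (62.0 against 28.9 CPM). In AAB 0 genes were called by edgeR (24 with an unadjusted p under 0.05, 7 by DESeq2), where 0.0196% of all genes were, and the median was -0.42. The unadjusted limit took in 741 of all 10183 genes.

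IL-7 gave lower levels in BBA as well, in both states tested. In Tnv with IL-7 the mean log2(CPM + 1) was 6.64 ± 0.0398 (SD, n = 2) in WT, 6.54 ± 0.259 in AAB and 6.08 ± 0.129 in BBA, and 12 genes were lower in BBA, against 1.54% of all genes, with a median log2 fold change of -0.56. Polr1b was at 96.6 and 95.5 CPM in WT, 66.4 and 71.3 CPM in AAB, and 46.6 and 34.9 CPM in BBA (BBA over WT -1.25, SE 0.163, adjusted p = 0.0178, edgeR). Rrp1b (-1.12) and Mybbp1a (-0.92) followed, and Wdr75, Utp18 and Nop56 were the smallest of the called changes (-0.62 to -0.67). All 6 multifunctional nucleolar proteins were among the 12, Npm1 at 1086 and 1038 CPM in WT and 589 and 558 CPM in BBA. The count was 0 without either WT library or without BBA replicate 2, 1 without BBA replicate 1, and 19 without either AAB library. In AAB 0 genes were called by edgeR (4 with an unadjusted p under 0.05, 0 by DESeq2), where 0.256% of all genes were. The unadjusted limit took in 976 of all 10157 genes.

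In Tcm with IL-7 the mean log2(CPM + 1) was 6.82 ± 0.00345 (SD, n = 2) in WT, 6.50 ± 0.00237 in AAB and 6.07 ± 0.150 in BBA. The small SD in WT hides differences between genes in opposite directions. Polr1b was at 42.4 and 83.7 CPM and Fbl at 330 and 223 CPM in the WT libraries. This pair had the highest chi-square over degrees of freedom of the 38 replicate pairs, 101. In BBA 16 genes were called lower, against 1.43% of all genes, with a median log2 fold change of -0.69. Rrp12 was at 89.9 and 97.4 CPM in WT, 79.3 and 77.0 CPM in AAB, and 50.3 and 33.1 CPM in BBA (BBA over WT -1.10, SE 0.213, adjusted p = 0.0480, edgeR). Mybbp1a (-1.05), Gnl3 (-1.02) and again all 6 multifunctional nucleolar proteins were called, and Ebna1bp2, Bop1 and Ncl were the smallest of the called changes (-0.64 to -0.83). Sex moved with genotype in these libraries, since both WT libraries were male and 1 of the 2 libraries was female in BBA and in AAB alike. With sex as a term 0 of the 16 BBA calls were left, while the median log2 fold change was -0.77. The count was 0 without any single AAB or BBA library and 27 without either WT library. In AAB 0 genes were called by edgeR (10 with an unadjusted p under 0.05, 1 by DESeq2), where 0.0594% of all genes were, with a median of -0.26. The unadjusted limit took in 1148 of all 10099 genes. The AAB count was 6 without WT replicate 2 and 1 without WT replicate 1.

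In naive CD4+ cells with IL-7, where the genotype comparison had 3 WT and 3 BBA libraries, the set was lower in BBA by less. The mean log2(CPM + 1) was 6.04 ± 0.0533 (SD, n = 3) in WT, 5.96 ± 0.0777 (n = 2) in AAB and 5.73 ± 0.0571 (n = 3) in BBA, and no BBA library reached the range of another genotype. In BBA 8 genes were called lower, against 2.62% of all genes, with a median log2 fold change of -0.28, and none of them reached 2-fold. They were Polr1b, Rrp1b, Gar1, Nop2, Rrp12, Dkc1, Nop16 and Mybbp1a, with log2 fold changes from -0.74 to -0.59. Dkc1 was at 99.5, 101 and 96.8 CPM in WT, 86.3 and 75.9 CPM in AAB, and 61.2, 70.2 and 61.4 CPM in BBA (BBA over WT -0.62, SE 0.0803, adjusted p = 1.59e-03, edgeR). Wdr12 had a single high library in BBA (95.8 CPM, against 29.6 and 40.9 CPM in the others) and was not called. The count was 4 without WT replicate 1 or BBA replicate 3 and 5 without BBA replicate 1. In AAB 0 genes were called by edgeR (4 with an unadjusted p under 0.05, 0 by DESeq2), where 0.611% of all genes were. The unadjusted limit took in 1076 of all 9488 genes. Rrp12 was the single gene called lower in BBA than in AAB (-0.65, SE 0.127, adjusted p = 0.0357, edgeR), against 0.885% of all genes. That call was lost without any single library but BBA replicate 2, without which it was 2 genes.

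Without cytokine 0 genes of the set were called between genotypes in any of the 4 cell populations (edgeR). For BBA the medians were -0.14 in Tnv (13 genes with an unadjusted p under 0.05, where 2.75% of all genes were called), -0.25 in Tcm (8 genes, 0.277%), -0.19 in Tem (4 genes, 0.206%) and -0.05 in CD4+ cells (1 gene, 1.13%). For AAB they were -0.03 in Tnv (3 genes, 0.164%), -0.03 in Tcm (0 genes, 0.0395%), -0.02 in Tem (1 gene, 0.0197%) and -0.09 in CD4+ cells (3 genes, 0.355%). For BBA the unadjusted limit took in 2211 of all 9750 genes in Tnv and 981 of 10122 in Tcm. It took in 1099 of 10171 in Tem and 996 of 10154 in CD4+ cells. For AAB it took in 765, 387, 817 and 809 genes in the same order. DESeq2 called 0 genes in each of these 8 comparisons, and for BBA Tnv 1 gene was called without WT replicate 2 or BBA replicate 1. In each of the 4 populations the BBA libraries had a mean log2(CPM + 1) below those of WT. In Tnv they were at 6.29 and 6.30 against 6.45 and 6.46 in WT, and 46 of the 48 estimates were negative. In Tcm they were at 6.21 and 6.35 against 6.48 and 6.61. In Tem they were at 5.94 and 6.12 against 6.22 and 6.28, and in CD4+ cells at 6.14 and 6.21 against 6.22 to 6.25.

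**Figure D4:**
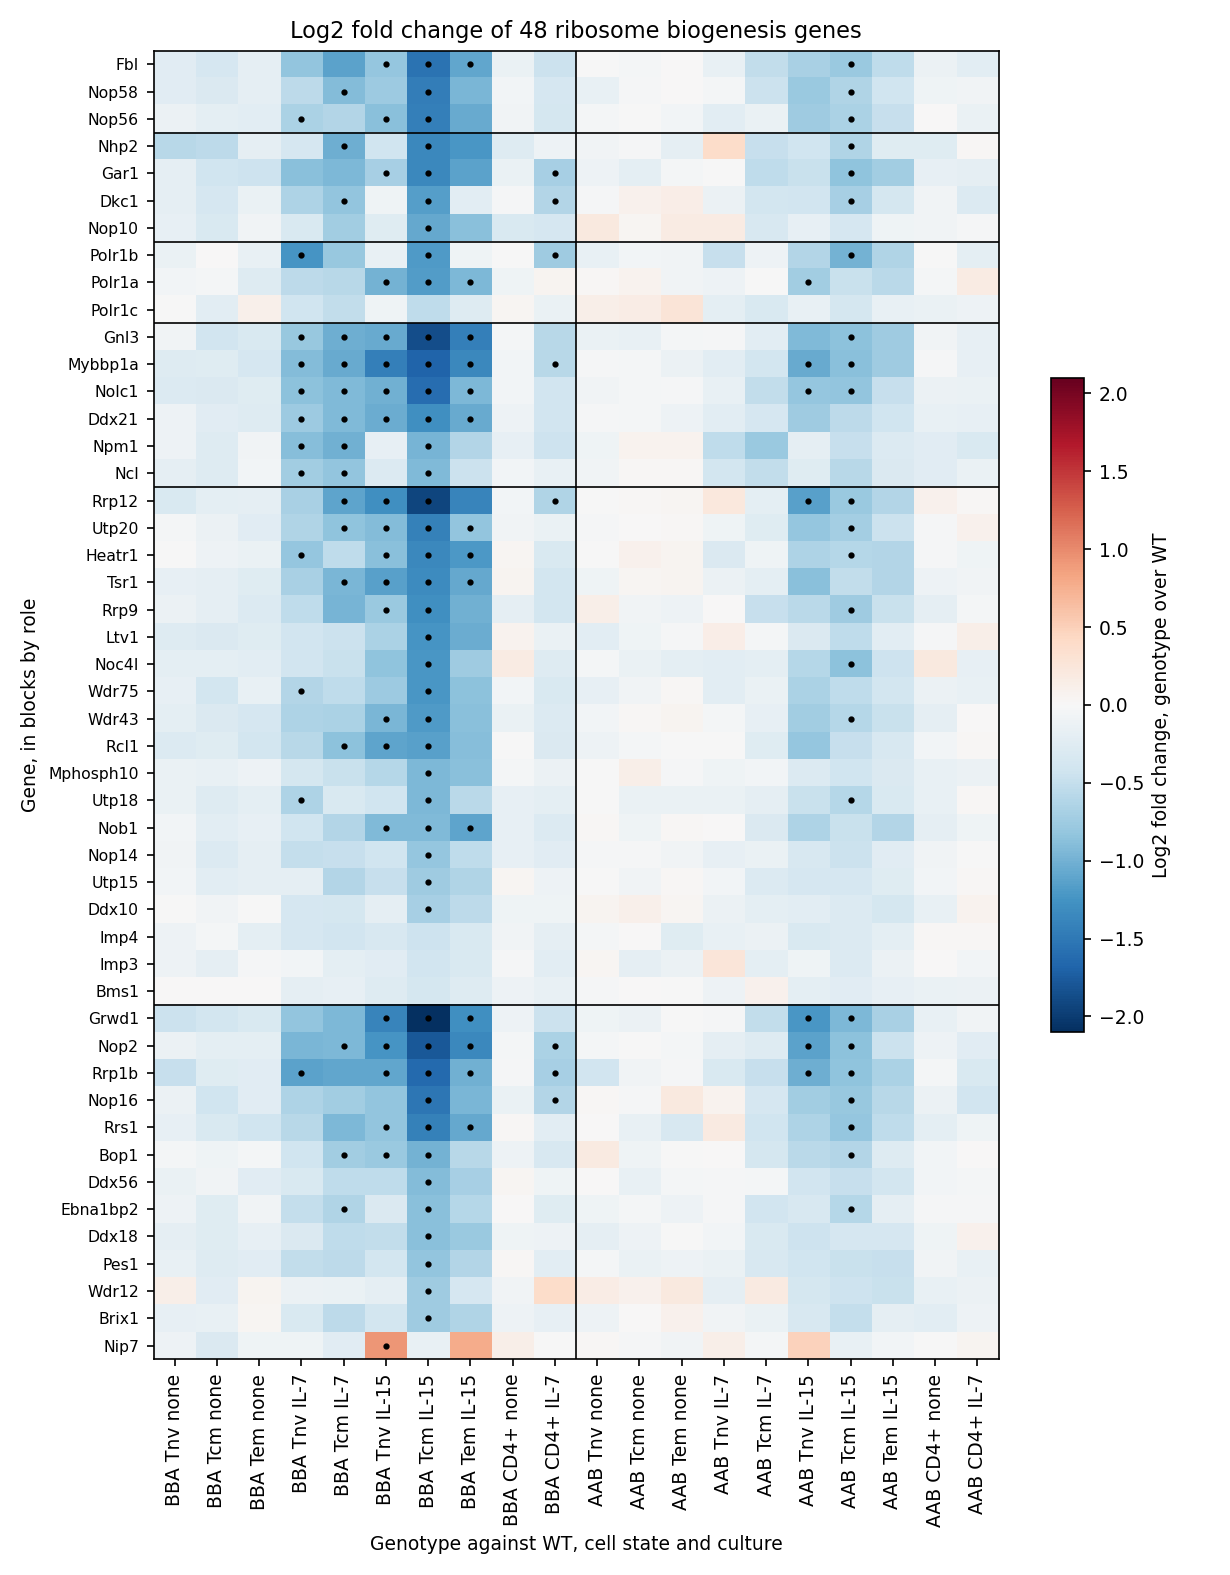
Log2 fold change over WT (colour, blue lower and red higher) of 48 ribosome biogenesis genes (rows, in blocks by role: C/D box, H/ACA, RNA polymerase I, multifunctional, small subunit and 40S, 60S) in 20 comparisons (columns, BBA to the left of the line and AAB to the right). Dots mark called genes, of which there are 43 in BBA Tcm with IL-15 and 0 in the 8 columns without cytokine.

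Whether the genotype effect differed between cells with and without cytokine was tested as the difference of the effects. Cells without cytokine may not have been cultured, so cytokine and culture cannot be told apart in it. In Tcm the BBA effect with IL-15 was below that without cytokine in 34 called genes, against 5.21% of all genes, with a median difference of -0.90 on the log2 scale. Grwd1 (-1.73, SE 0.194), Rrp12 (-1.72, SE 0.263) and Nop2 (-1.59, SE 0.152) differed most, and the count was 22 to 38 when 1 library was left out, lowest without WT replicate 1 with IL-15. In Tnv the difference was called in 12 genes below 0, against 0.965% of all genes, and in 1 gene above 0, Nip7 (1.03, SE 0.207), against 1.58%. Without replicate 1 or 2 of WT Tnv without cytokine the count fell from 13 to 1 or 2, and without replicate 1 or 2 of BBA Tnv without cytokine to 5 or 4. Without WT replicate 2 with IL-15 it was 15, all below 0, and Nip7 was no longer among them. In Tem 0 genes were called by edgeR (33 with an unadjusted p under 0.05, 7 by DESeq2), where 0.00954% of all genes were, with a median difference of -0.67. The unadjusted limit took in 811 of all 10485 genes. In CD4+ cells with IL-7 the difference was called in Dkc1 alone (-0.59, SE 0.116, adjusted p = 0.0207, edgeR), against 0.894% of all genes. That call was lost without WT replicate 2 or 3 or BBA replicate 2 without cytokine, WT replicate 1 or 2 with IL-7, or BBA replicate 1 or 3 with IL-7, and the count was 5 without BBA replicate 2 with IL-7 and 2 without either AAB library with IL-7.

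The genes differed in how often they were called. Over the 6 comparisons of BBA with WT under a cytokine, Mybbp1a was called lower in all 6, Ddx21, Gnl3, Nolc1, Nop2 and Rrp1b in 5, and Heatr1, Rrp12, Tsr1 and Utp20 in 4. Polr1c, Imp3, Imp4, Bms1 and Nip7 were called lower in none. Spearman's rho between the BBA log2 fold changes of Tcm with IL-15 and those of the other cytokine cultures ran from 0.69 (CD4+ with IL-7) to 0.83 (Tem with IL-15) over 48 genes. These correlations are across genes, which are not independent replicates, and the libraries are different ones in each culture.

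Few genes of the set were called between cytokine and no cytokine in WT cells. The counts were near or below the share of all genes called, so they do not set these genes apart. In Tcm with IL-15 against no cytokine the median log2 fold change was 0.33, with 46 of 48 estimates above 0, and 0 genes were called by edgeR (14 with an unadjusted p under 0.05, 1 by DESeq2), where 0% of all genes were. The unadjusted limit took in 1311 of all 10768 genes there. For this comparison 2 genes were called without either Tcm library with IL-7, which share the fit. The other comparisons in which 0 genes were called were Tnv with IL-15 (median -0.16, 10 genes with an unadjusted p under 0.05, 0 by DESeq2, 6.15% of all genes called), Tem with IL-15 (0.07, 5 genes, 0 by DESeq2, 1.64%) and Tcm with IL-7 (0.23, 12 genes, 0 by DESeq2, 0.381%). In the same order the unadjusted limit took in 2880 of all 9838, 1796 of all 9567 and 1264 of all 10768 genes. Without WT Tnv replicate 2 with IL-15, the library with Cd4 counts, the Tnv median was -0.05 and the count 0. They gave 1 gene without WT Tnv replicate 1 with IL-15, 1 without WT Tem replicate 1 with IL-15, and 2 without WT Tcm replicate 1 with IL-7. In Tnv with IL-7, Polr1b (1.02), Wdr12 (0.84), Gnl3 (0.69) and Mphosph10 (0.59) were called higher, 4 of 48 where 9.87% of all genes were. Polr1b went from 46.3 and 48.8 CPM to 96.6 and 95.5 CPM, and without any 1 of these 4 libraries 2 genes were called. The WT libraries of Tnv and of Tcm with IL-7 were male, and those without cytokine female. Sex and IL-7 therefore cannot be told apart in WT Tnv or in WT Tcm. In CD4+ cells with IL-7, Rrp12 (-1.02), Utp20 (-0.95), Grwd1 (-0.68) and Rrs1 (-0.62) were called lower, 4 of 48 where 7.44% of all genes were. Rrp12 was at 57.2, 48.60 and 48.03 CPM without cytokine and at 27.0, 25.2 and 23.6 CPM with IL-7.

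Placed side by side, the deficient cells of Tcm stood lower with IL-15 than without cytokine and WT stood higher, while in Tnv all 3 genotypes stood lower. For AAB and BBA this was not tested, and the cells without cytokine may not have been cultured. In Tcm the mean log2(CPM + 1) was 6.55 ± 0.0885 without cytokine and 6.89 ± 0.0884 with IL-15 in WT (SD, n = 2), 6.49 ± 0.0156 and 6.26 ± 0.0136 in AAB, and 6.28 ± 0.0969 and 5.71 ± 0.00767 in BBA. In Tnv it was 6.46 ± 0.00628 and 6.29 ± 0.171 in WT, 6.42 ± 0.0578 and 5.74 ± 0.0658 in AAB, and 6.30 ± 0.0121 and 5.62 ± 0.139 in BBA. Between WT cell states without cytokine 0 genes were called by edgeR for Tcm against Tnv (median 0.09, 0 genes with an unadjusted p under 0.05, 0 by DESeq2, 2.78% of all genes called) and for Tem against Tcm (median -0.27, 21 genes, 0 by DESeq2, 1.95%). The unadjusted limit took in 1428 and 1344 of all 10013 genes. In the last comparison 47 of 48 estimates were below 0, and 1 gene was called without Tcm replicate 2.

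The transduced libraries, labelled as CD8+ cells, went against that label. Cd8a and Cd8b1 together were at 1.70 to 4.71 CPM, against 1212 to 3201 CPM in the other CD8+ libraries, T cell markers at 19.2 to 212 CPM and NK cell markers (Ncr1, Klrb1c and Klra8) at 1629 to 1842 CPM, against at most 10.6 CPM in the other CD8+ libraries. In the libraries labelled CA-STAT5A, Stat5a was at 59.7 and 60.7 CPM, against 8.42 and 3.21 CPM in those labelled as controls. The labels name STAT5A alone, yet Stat5b was higher there too, at 148 and 132 CPM against 61.8 and 73.4 CPM (log2 fold change 1.05, SE 0.129, adjusted p = 8.17e-03, edgeR), so what these libraries hold beyond their labels is in doubt, and their comparison is that of the labels only. The mean log2(CPM + 1) was 5.51 ± 0.147 (SD, n = 2) in the libraries labelled CA-STAT5A and 5.69 ± 0.0234 in those labelled control. The median log2 fold change was -0.18, with 40 of 48 estimates below 0, and 0 genes were called by edgeR (6 with an unadjusted p under 0.05, 0 by DESeq2), where 6.63% of all genes were. The unadjusted limit took in 2114 of all 10354 genes. Without control replicate 1 the count of called genes was 1.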

How the data were processed

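RNA-seq was read from 3 count tables (CD8+, CD4+ and transduced cells). Per the study's methods and the submitters' processing notes, the authors used TopHat2 to align single-end reads and HTSeq to count them over genes, and the deposited values are raw counts. The notes name build mm9 and the methods mm10, and the tables carry gene symbols only, so positions here come from GENCODE on GRCm38. Rows that name no gene took 67.0 to 68.4% of the transduced libraries and were left out. Total counts were 5926139 to 34118295 per library, and 38 replicate pairs all differed beyond counting error (lowest chi-square over degrees of freedom 5.75). The study's reporting summary gives 2 or 3 mice per RNA-seq group.

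Low counts were filtered by the Jaccard index over 100 thresholds from 1 to 200 (as HTSFilter does, loess span 0.3). The libraries of each culture were normalized by TMM and fitted with edgeR 4.0.16 in R 4.3.3 (quasi-likelihood test, Benjamini-Hochberg over all genes tested), and genes with more than 1.5-fold change and an adjusted p under 0.05 were called. TMM moved log2 fold changes by -0.118 to 0.0233 against plain totals. Some of the fits were run on simulated counts with known changes, drawn independently for each library around a common mean per gene. The simulated counts held no sex imbalance and no deviations shared between libraries, and their outcome is not given here. Alternatives were a 2-fold limit, no filter, size factors, DESeq2 1.42.0, 1 fit per lineage, a replicate block, a sex term and leaving out each library. Deviations of same-numbered CD4+ libraries with IL-7 correlated weakly (r 0.102 to 0.211 over 3 pairs of WT and BBA), which does not establish a pairing. Over all CD4+ genotype pairs r ran from 0.102 to 0.446. The block left the 8 calls of BBA in CD4+ cells with IL-7 at 8. The members and lists were chosen with earlier results of these data known. Named genes are a panel of 25 genes standing for the roles, the 3 largest and 3 smallest called changes of each comparison and any gene called against the main direction, and other named genes were chosen after their values were seen. Noc2l was not analysed here. The cytokine label of 2 CD4+ libraries contradicts itself, and they were put in no group.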

Additional observations from a re-analysis of the deposited data

Results flagged for a closer look

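The BBA effect differed between cultures, tested as the difference of the effects (edgeR). For IL-15 against no cytokine in Tnv it was called in 13 of the 48 genes, 12 below 0 (0.965% of all genes) and 1 above 0 (1.58%), and in 1 to 15 when 1 library was left out. In Tcm it was called in 34 genes, all below 0 (5.21% of all genes), and in 22 to 38 with a library left out. For IL-7 against no cytokine in CD4+ cells it was called in 1 gene, Dkc1, below 0 (0.894%), and in 0 to 5 with a library left out. Cells without cytokine may also differ from the others in having had no culture, and the parts of culture and cytokine in the result cannot be told apart.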

How the results depend on the processing

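No value changed sign past its threshold under any alternative. Counts of called genes are given as BBA or AAB against WT unless stated, and "effect of IL-15" (or IL-7) means the BBA effect with it minus that without cytokine. Without a filter on low counts the counts were 1 for BBA Tnv without cytokine, 24 for BBA Tnv IL-7, 40 for BBA Tnv IL-15, 23 for AAB Tnv IL-15, 38 for BBA Tcm IL-7, 1 for AAB Tcm IL-7 and 25 for BBA Tem IL-15. They were 1 for IL-15 in WT Tnv, 2 for IL-15 and 3 for IL-7 in WT Tcm, 21 for the effect of IL-15 in Tnv and 3 for that of IL-7 in CD4+. In that setting the named genes' log2 fold changes shifted together by -0.26 (BBA Tcm IL-15) and -0.33 (BBA Tnv IL-15).

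With a 2-fold limit they were 2 for BBA Tnv IL-7, 10 for BBA Tnv IL-15, 5 for BBA Tcm IL-7, 28 for BBA Tcm IL-15, 0 for AAB Tcm IL-15, 3 for BBA against AAB in Tcm IL-15, and 0 for BBA and 0 for BBA against AAB in CD4+ IL-7. They were 1 for IL-7 in WT Tnv, 1 for IL-7 in WT CD4+, and 3, 20 and 0 for the effects in Tnv, Tcm and CD4+. DESeq2 gave 19 for AAB Tnv IL-15, 29 for BBA Tcm IL-7, 1 for AAB Tcm IL-7, 34 for BBA and 7 for AAB Tem IL-15, 1 for IL-15 in WT Tcm, and 20, 7 and 4 for the effects in Tnv, Tem and CD4+. One fit per lineage gave 19 for BBA Tnv IL-7, 20 for AAB Tnv IL-15, 37 for BBA and 1 for AAB Tcm IL-7, 36 for BBA and 3 for AAB Tem IL-15, 3 for IL-15 and 2 for IL-7 in WT Tcm, and 4 for the effect in Tem. With sex as a term BBA Tcm IL-7 gave 0.

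With the replicate block the counts were 20 for BBA Tnv IL-7, 20 for AAB Tnv IL-15, 9 for BBA Tcm IL-7, 35 for BBA and 5 for AAB Tem IL-15, 2 for BBA against AAB in CD4+ IL-7, and 21, 12 and 3 for the effects in Tnv, Tem and CD4+. Deviations of same-numbered CD8+ libraries correlated between genotypes by -0.056 to 0.793, with 2 pairs a comparison, so the numbers were not taken as pairs. Between cell states they correlated by 0.536 to 0.697, and between cytokine cultures by -0.046 to 0.569. The main comparisons of states and of cultures took no pairing into account, and whether same-numbered libraries share mice was not tested.

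Leaving out 1 library gave 0 to 1 for BBA Tnv without cytokine, 0 to 19 for BBA Tnv IL-7, 14 to 19 for BBA and 0 to 8 for AAB Tnv IL-15, 0 to 27 for BBA and 0 to 6 for AAB Tcm IL-7, 6 to 24 for AAB and 9 to 22 for BBA against AAB in Tcm IL-15, 0 to 1 for BBA Tem IL-15, 4 to 8 for BBA and 0 to 2 for BBA against AAB in CD4+ IL-7. It gave 0 to 1 for IL-15 in WT Tnv, 2 to 4 for IL-7 in WT Tnv, 0 to 2 for IL-15 and for IL-7 in WT Tcm, 0 to 1 for IL-15 in WT Tem, 0 to 1 for Tem against Tcm, 0 to 1 for CA-STAT5A, and 1 to 15, 22 to 38 and 0 to 5 for the effects in Tnv, Tcm and CD4+. The other 163 counts under other settings and 178 with a library left out stayed within 1.5 times. The cause of these shifts was not tested.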

Other observations

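Other ribosome biogenesis genes, a list of 105 of which 103 could be tested, were described in the same comparisons. In Tcm with IL-15, 46 were lower in BBA than in WT (11.8% of all genes were, and the median log2 fold change of the list was -0.51) and 12 in AAB (2.57%, median -0.29), and 10 were lower in BBA than in AAB (3.15%). In BBA Tnv with IL-15 there were 15 (2.51%) and in Tem with IL-15 9 (1.18%). With IL-7 edgeR called 2 lower in BBA Tnv (1.54%), 0 in Tcm (1.43%) and 1 in CD4+ cells (2.62%), where DESeq2 called 8, 23 and 1. In Tcm with IL-7, 44 were lower and 2 higher at an unadjusted p under 0.05 (edgeR), and the median of the list was -0.32. The unadjusted limit took in 2501 of all 10099 genes, in either direction. The largest called changes in BBA Tcm with IL-15 were those of Nat10, an RNA acetyltransferase (-1.66, SE 0.0909), Pno1, a factor of 40S assembly (-1.61, SE 0.161), and Mdn1, an ATPase of 60S assembly (-1.53, SE 0.0926). Nat10 was also called lower in BBA Tnv with IL-15 (-1.28), Tem with IL-15 (-1.47) and CD4+ cells with IL-7 (-1.01). The list was chosen with earlier results known.

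The 2 CD4+ libraries with contradictory cytokine labels, AAB replicate 3 and BBA replicate 3, had a mean log2(CPM + 1) over the 48 genes of 6.15 and 6.14. Libraries labelled without cytokine spanned 6.11 to 6.25 and those with IL-7 5.68 to 6.09.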
